A study of Rattus norvegicus with 21 samples.

Results

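The peroxisome proliferator-activated receptors (PPARs) and the metabolic nuclear receptors that work beside them were followed in rat renal cortex. The set held 8 of the 26404 genes counted in each rat. It was chosen by Ensembl identifier, and it comprised the PPAR isotypes Ppara, Pparg and Ppard, their partner Rxra, the receptors Nr1h4, Hnf4a and Esrra, and the coactivator Ppargc1a. No level of a gene entered the rule, but the members were chosen with earlier results of these data known. All 8 identifiers were found, each on the chromosome that the rule gave and that RefSeq gives for the symbol.

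RNA-seq was carried out on renal cortex of male rats at 37 weeks of age. Healthy controls were Sprague Dawley rats (SD, n=6). Zucker Diabetic Sprague Dawley (ZDSD) rats, an obese strain in which type 2 diabetes develops with intact leptin signalling, formed the SHAM and DMT groups, and both of these groups underwent a sham laparotomy after a period of insulin treatment and an antibiotic dose. SHAM rats (n=7 of the 9 libraries with that label) received no further treatment. DMT rats (n=6), which the labels name Medical bypass, received dietary restriction together with fenofibrate, metformin, ramipril, rosuvastatin and liraglutide. Fenofibrate is an agonist of PPARα, the product of Ppara. Diet and each drug were given together, so that their parts cannot be told apart. The SD rats differed from both ZDSD groups in strain, in diabetes and in the sham operation, which was not stated for SD rats, and these also cannot be told apart. SD and SHAM libraries, but not DMT libraries, are marked in the labels as re-analyses of earlier deposits, and no batch is given.

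Libraries of the 19 rats held 14502127 to 27597901 counts, with 17146 to 17742 genes detected. The SHAM libraries of rats 343 and 348 held 121511 and 101534 counts and were left out of all levels and of the model. Each library came from 1 rat. Tubular, glomerular and other cell type markers could not be looked up, because no table used here pairs the Ensembl identifiers with symbols, and therefore the tissue label was not checked against its markers. In bulk cortex, fewer cells of a type and less RNA per cell cannot be told apart.

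PPARs are ligand-activated transcription factors. Each binds DNA as a heterodimer with a retinoid X receptor, of which Rxra encodes the alpha form, on paired copies of a short hexamer, and fatty acids and their derivatives are natural ligands. PPARα drives peroxisomal and mitochondrial fatty acid oxidation and is prominent in liver and in the proximal tubule, the kidney segment that relies most on fatty acids for fuel. PPARδ (Ppard) is present in most tissues and also supports fatty acid oxidation, whereas PPARγ (Pparg) is best known for adipocyte differentiation and as the target of thiazolidinediones. Nr1h4 encodes the bile acid receptor FXR, another partner of RXR. Hnf4a encodes a receptor that maintains epithelial identity in liver and proximal tubule, and Esrra encodes ERRα, which works with the coactivator PGC-1α, the product of Ppargc1a, on mitochondrial genes.

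Promoter sequences are shown for Ppara, because it encodes the receptor of fenofibrate, and for Ppargc1a, whose pattern over the rats was nearest to that of Ppara among the members. They are the 250 bases before the annotated start, from RefSeq on GRCr8, at chr7:118712357-118712606 on the plus strand and chr14:63634058-63634307 on the plus strand. Capitals mark a full cAMP response element.
Ppara: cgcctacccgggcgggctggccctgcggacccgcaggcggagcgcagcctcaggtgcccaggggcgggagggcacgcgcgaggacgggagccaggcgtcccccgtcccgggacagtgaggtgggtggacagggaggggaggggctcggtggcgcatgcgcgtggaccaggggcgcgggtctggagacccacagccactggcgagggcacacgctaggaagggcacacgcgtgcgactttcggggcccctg
Ppargc1a: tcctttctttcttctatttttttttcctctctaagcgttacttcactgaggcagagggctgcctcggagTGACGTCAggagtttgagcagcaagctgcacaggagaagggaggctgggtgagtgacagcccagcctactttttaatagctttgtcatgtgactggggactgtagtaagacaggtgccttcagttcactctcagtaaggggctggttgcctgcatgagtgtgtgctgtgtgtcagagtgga

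The element TGACGTCA lies 181 to 174 bases before the start of Ppargc1a, and 1.59% of 33465 rat promoters of this length hold it on either strand. In the Ppara promoter, 76% of bases are G or C, compared with 50.4% for Ppargc1a and a median of 51.2% over all promoters. The Ppara promoter has 2 GC boxes (GGGCGG, in 30.5% of promoters) and no full cAMP response element. Neither promoter holds the receptor hexamer AGGTCA (14.1% of promoters), nor therefore its direct repeat with 1 base between the copies, DR1 (0.0508%), or the ERR element TCAAGGTCA (0.388%), each searched on both strands. The hexamer was also absent from the promoters of Pparg, Rxra, Hnf4a and Esrra, and the HNF4 element CAAAGTCCA (0.338% of promoters) was absent from all of these. Ppard and Nr1h4 had no entry among the promoter sequences and were not searched. A match of letters is not a bound site, and the absence of these letters from 250 bases says nothing of binding elsewhere.

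The members differed widely in level. Levels of different genes were compared in TPM, which divides counts by the exonic length in the files and scales every rat to the same sum. Hnf4a had the highest level of the members in 19 of 19 rats, with 598 ± 61.0 TPM (SD, n=19), above 98.8% of detected genes. Esrra followed with 105 ± 12.2 TPM, Rxra with 83.8 ± 10.5 TPM, Nr1h4 with 82.4 ± 9.66 TPM and Ppargc1a with 76.6 ± 15.4 TPM. Ppara had 50.9 ± 13.8 TPM and Ppard 18.8 ± 10.7 TPM. Pparg was the lowest member in 19 of 19 rats, with 1.85 ± 0.760 TPM, and 37.4% of detected genes lay at or below it.

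**Figure D1:**
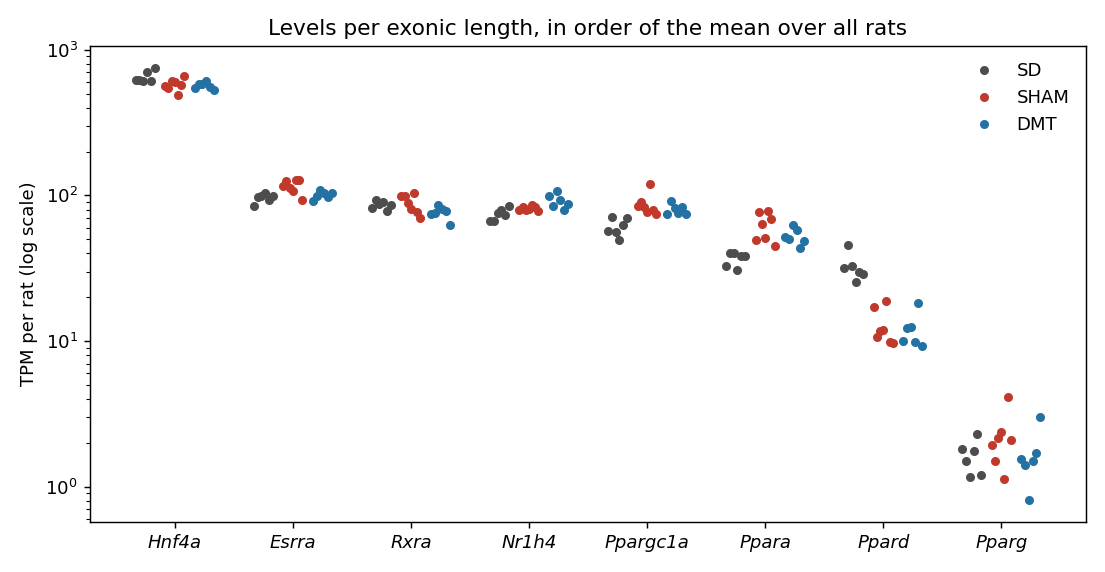
TPM (log scale) of each member in each of the 19 rats, coloured by group, with genes ordered by their mean. Hnf4a lies above and Pparg below all other members in every rat, Rxra, Nr1h4 and Ppargc1a lie close to each other, and Ppard lies at 25.4 to 46.0 TPM in SD rats but at 9.30 to 18.8 TPM in ZDSD rats.

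Some neighbours in this order had overlapping ranges over rats, a comparison that does not pair the genes within each rat. Rxra and Nr1h4 overlapped in TPM in every group, as did Nr1h4 and Ppargc1a, whereas Rxra lay above Ppargc1a without overlap in SD rats. Esrra and Rxra overlapped in SD and SHAM rats but not in DMT rats, and Ppargc1a and Ppara overlapped in SHAM rats alone. Rxra lay above Nr1h4 in 6 of 6 SD rats, 4 of 7 SHAM rats and 0 of 6 DMT rats. Ppara and Ppard had overlapping TPM in SD rats, with Ppara higher in 5 of 6, and separate ranges in SHAM (7 of 7) and DMT (6 of 6) rats.

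Of the members, only Ppard and Ppara were called between the ZDSD groups and SD rats, which differ in strain, in diabetes and in the stated sham operation. Ppard fell in both ZDSD groups relative to SD rats and Ppara rose in both, whereas no isotype was called in DMT vs SHAM. Within each comparison a gene was called when its adjusted p-value (Benjamini-Hochberg over all 14664 genes tested, edgeR quasi-likelihood test) was under 0.05 and its fold change was at least 1.3, and all 8 members passed the filter on low counts. In SHAM vs SD, 2 of 8 members were called, beside 18.3% of all genes tested. In DMT vs SD, 2 of 8 were called, beside 18.2%. In DMT vs SHAM, 0 of 8 were called, beside 11.5%, and 1 of 8 had an unadjusted p-value under 0.05. DESeq2 called 2, 2 and 0 members in the same order. These shares do not set the members as a group apart from other genes. The 3 comparisons share rats, and in particular both comparisons with SD rest on the same 6 SD rats.

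Ppard (ENSRNOG00000000503, rn5 chr20:10018464-10083772, plus strand) had levels of 44.9, 53.8 and 78.5 CPM (counts scaled to a common library total) as the lowest, median and highest value in SD rats. The corresponding values were 16.7, 20.1 and 31.2 CPM in SHAM rats and 16.1, 19.2 and 31.4 CPM in DMT rats. Every ZDSD rat lay below every SD rat. The highest ZDSD values belonged to SHAM rats 311 and 333 (29.6 and 31.2 CPM) and DMT rat 341 (31.4 CPM), and all others lay at or below 21.2 CPM. Ppard was 2.83-fold lower in SHAM than in SD rats (log2 fold change -1.50, SE 0.16, adjusted p=2.12e-06 by edgeR). Its p-value was the 85th smallest of 14664. In DMT vs SD, Ppard was 2.87-fold lower (log2 fold change -1.52, SE 0.17, adjusted p=1.61e-06 by edgeR). Between DMT and SHAM rats, the log2 fold change was -0.02 (95% confidence interval -0.36 to 0.32, adjusted p=0.940 by edgeR), an interval that stays within 1.3-fold in either direction. Ppard remained called in both comparisons with SD in all 29 alternatives, with log2 fold changes of -1.59 to -1.37 in SHAM vs SD and -1.68 to -1.43 in DMT vs SD. Not every alternative could have removed a call.

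No surrounding gene showed as large a decrease as Ppard. Within 1000000 bases on either side of Ppard, a window chosen after its values had been seen, 28 other genes were tested. In SHAM vs SD, 7 of these were called (5 higher and 2 lower), or 25%, beside 18.3% of all genes tested. The median log2 fold change was -0.05. In DMT vs SD, 7 were called (4 higher and 3 lower), or 25%, beside 18.2%, with a median of -0.03. None of the 28 had a log2 fold change as low as that of Ppard in either comparison, but ENSRNOG00000000499, named after its values had been seen, rose by more than Ppard fell, with log2 fold changes of 2.30 and 2.62.

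**Figure D2:**
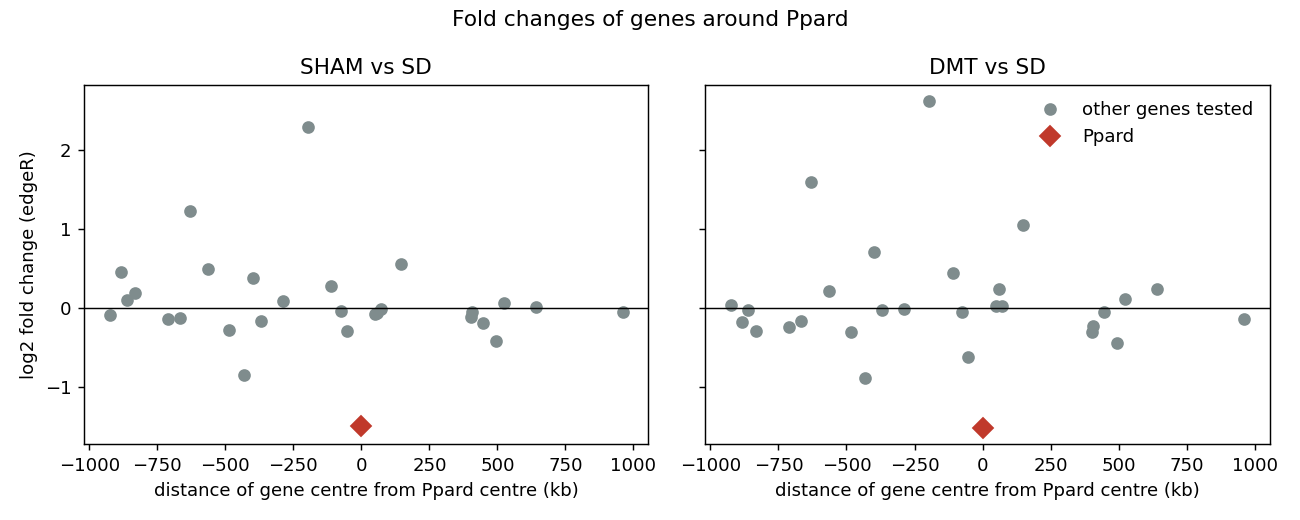
Log2 fold change of Ppard (diamond) and of the 28 other tested genes (circles) against the distance between gene centres in kb, for SHAM vs SD and DMT vs SD. Ppard is the lowest point in both panels, at -1.50 and -1.52, most neighbours lie near 0, and the highest reaches 2.30 and 2.62.

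Ppara (ENSRNOG00000021463, rn5 chr7:126330833-126392748, plus strand) had 33.9, 41.9 and 44.1 CPM as the lowest, median and highest value in SD rats. The corresponding values were 47.8, 67.0 and 82.6 CPM in SHAM rats and 46.5, 54.6 and 66.6 CPM in DMT rats. On this scale every ZDSD rat lay above every SD rat. With CPM scaled by TMM, the scaling of the model, SHAM and SD rats stayed apart and 5 of 6 DMT rats lay above all SD rats. Ppara rose 1.50-fold in SHAM vs SD (log2 fold change 0.58, SE 0.12, adjusted p=0.00101 by edgeR). It rose 1.33-fold in DMT vs SD (log2 fold change 0.41, SE 0.12, adjusted p=0.0133 by edgeR), close to the fold threshold. That call was lost without SD rat 352 (log2 fold change 0.38, adjusted p=0.0311 by edgeR) and without DMT rat 328 (0.37, adjusted p=0.0353), and both calls were lost when the 1.3-fold threshold was part of the test (adjusted p=0.155 and 0.856).

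Dietary restriction with the drug combination, which includes a PPARα agonist, was not accompanied by a called change in Ppara itself. Between DMT and SHAM rats, the log2 fold change was -0.17 (95% confidence interval -0.41 to 0.07, adjusted p=0.320 by edgeR), so that an increase of more than 1.05-fold lay outside the interval while a decrease of up to 1.33-fold lay within it. In CPM, all 6 DMT rats lay below the SHAM median and 4 of 7 SHAM rats lay above every DMT rat. After TMM scaling these counts were 5 of 6 and 3 of 7. The SHAM rats spread most, from rat 340 at 47.8 CPM to rat 315 at 82.6 CPM.

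Pparg (ENSRNOG00000008839, rn5 chr4:210564193-210688582, plus strand) was close to the lower limit of useful counts, with 16 to 91 counts per library. Its lowest, median and highest levels were 1.20, 1.66 and 2.37 CPM in SD rats, 1.10, 2.10 and 4.22 CPM in SHAM rats, and 0.813, 1.55 and 3.04 CPM in DMT rats. The groups overlapped in all comparisons. The log2 fold changes were 0.31 in SHAM vs SD (95% confidence interval -0.30 to 0.92, adjusted p=0.423 by edgeR), -0.05 in DMT vs SD (-0.69 to 0.58, adjusted p=0.910) and -0.36 in DMT vs SHAM (-0.97 to 0.25, adjusted p=0.409). Single rats moved these values. Without SHAM rat 334 the log2 fold change was 0.06 in SHAM vs SD and -0.11 in DMT vs SHAM. In DMT vs SHAM it was -0.62 without DMT rat 347 and -0.22 without DMT rat 328, and in DMT vs SD it was -0.31 and 0.09 without the same rats. None of these values passed the test. Each interval of the fit to all 19 rats included changes of more than 1.3-fold in at least 1 direction, so that a change of that size was not excluded.

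Because the Ppara and Ppard changes ran in opposite directions, the make-up of the PPAR transcript pool was described as the share of each isotype in their summed TPM, a measure that does not depend on library scaling. Ppara made up 52.2% ± 3.88 (SD, n=6) of the pool in SD rats, 80.0% ± 4.48 (n=7) in SHAM rats and 79.2% ± 5.52 (n=6) in DMT rats. The Ppara share ranged from 45.8% to 56.2% in SD rats, from 72.1% to 86.3% in SHAM rats and from 68.6% to 83.7% in DMT rats. Ppard made up 45.4%, 17.0% and 18.2% in the same order. The Pparg share was 2.34%, 2.98% and 2.58%. The ratio of Ppara to Ppard TPM was 1.16 ± 0.176 in SD, 5.07 ± 1.56 in SHAM and 4.65 ± 1.26 in DMT rats. The SD rats thus held about equal amounts of both transcripts per length and every ZDSD rat held at least 2.39 times as much Ppara as Ppard. These shares restate the fold changes above and were not tested separately.

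**Figure D3:**
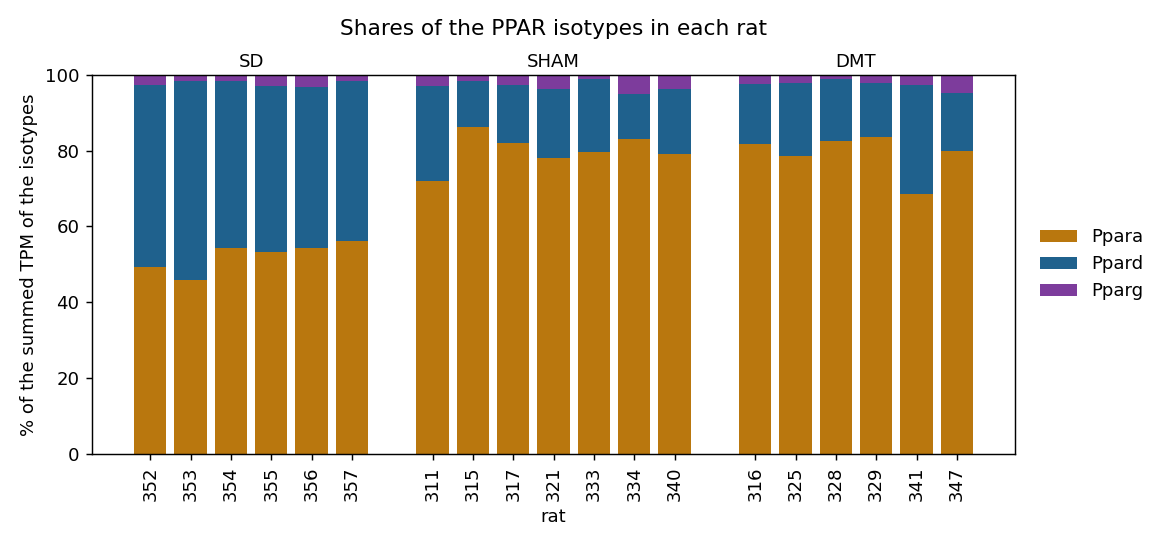
Share of Ppara, Ppard and Pparg in the summed TPM of the PPAR isotypes (stacked bars to 100%) for each rat by group. The Ppara share is 45.8% to 56.2% in SD rats and 68.6% to 86.3% in ZDSD rats, with the lowest ZDSD value in DMT rat 341.

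Rxra (ENSRNOG00000009446, rn5 chr3:11570610-11654513, plus strand), the shared partner, varied less. Its lowest, median and highest levels were 83.1, 92.7 and 97.0 CPM in SD rats, 73.4, 92.1 and 105 CPM in SHAM rats, and 66.1, 80.3 and 89.4 CPM in DMT rats. All 6 DMT rats lay below the SD median and below the SHAM median, but the groups overlapped. In DMT vs SD, the log2 fold change was -0.28 (SE 0.08, adjusted p=0.0128 by edgeR), a 1.21-fold lower level that passed the adjusted p-value but not the fold threshold. With libraries scaled by their totals only, the adjusted p-value of that difference was 0.0768. Log2 fold changes were -0.12 in SHAM vs SD (adjusted p=0.219 by edgeR) and -0.15 in DMT vs SHAM (adjusted p=0.172). Rxra TPM relative to the summed PPAR isotypes was 1.23 ± 0.173 in SD, 1.17 ± 0.159 in SHAM and 1.15 ± 0.0657 in DMT rats, with overlapping ranges.

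**Figure D4:**
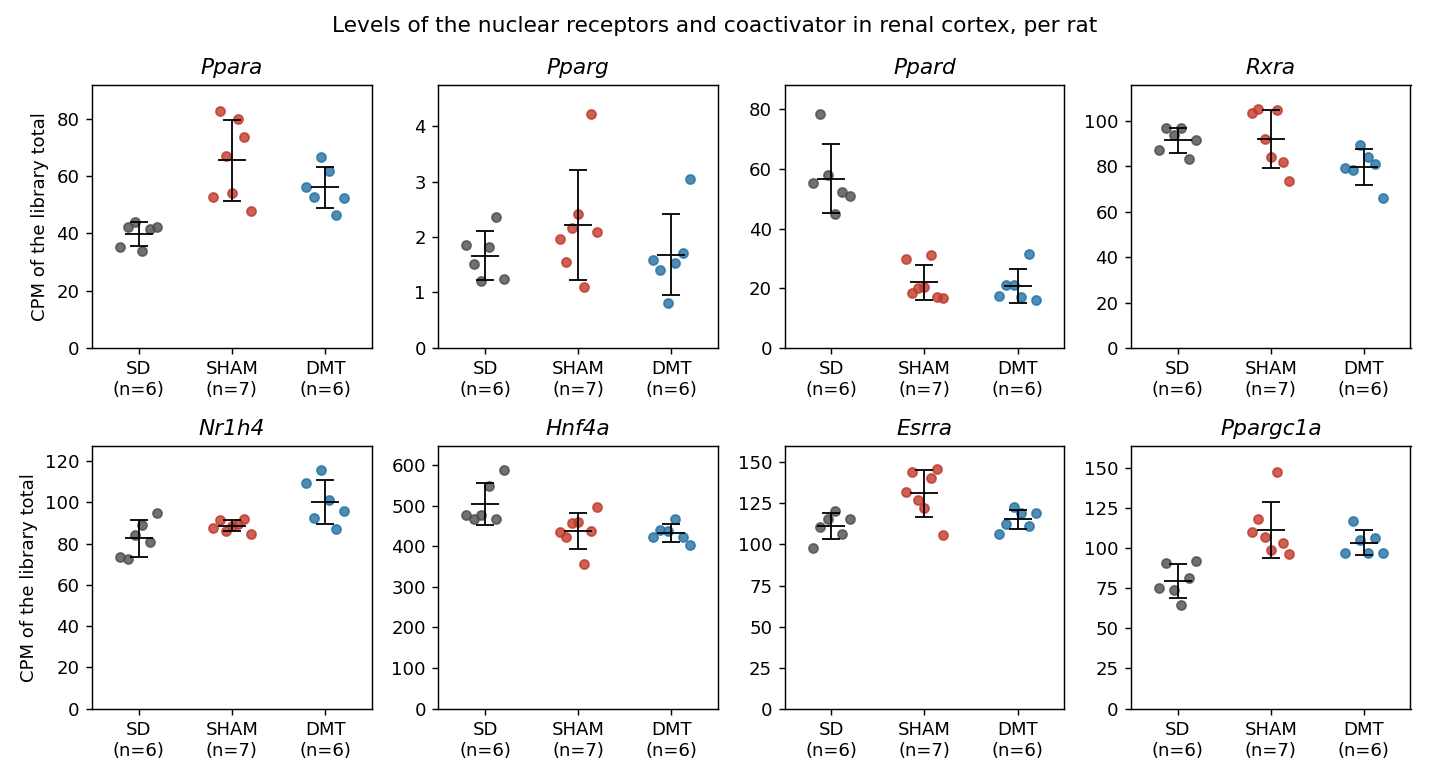
CPM of the library total for the 8 members in each rat, with one panel per gene and axes from 0. Horizontal bars are the group mean and error bars are 1 SD; SD and ZDSD rats are separate for Ppard, Ppara and Ppargc1a, and DMT and SHAM rats overlap in every panel.

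Nr1h4 (ENSRNOG00000007197, rn5 chr7:30104960-30260754, minus strand), the bile acid receptor gene, had the smallest adjusted p-value of the members between DMT and SHAM rats. Its lowest, median and highest levels were 84.7, 88.7 and 92.1 CPM in SHAM rats and 86.9, 98.4 and 116 CPM in DMT rats. Of the 6 DMT rats, 5 lay above every SHAM rat. SHAM rats were tightly grouped (88.6 ± 2.71 CPM, n=7), in contrast to DMT rats (100 ± 10.8 CPM, n=6). The difference was 1.17-fold (log2 fold change 0.23, SE 0.08, adjusted p=0.0447 by edgeR), which passed the adjusted p-value, as did 20.3% of all genes, but not the fold threshold, so that Nr1h4 was not called. The adjusted p-value ranged from 0.0170 to 0.107 over the alternatives that test for any difference, and therefore crossed 0.05, and it was 1 when the 1.3-fold threshold was part of the test. SD rats had 72.3, 82.4 and 95.0 CPM. The log2 fold change in SHAM vs SD was -0.03 (adjusted p=0.789 by edgeR) and that in DMT vs SD was 0.20 (adjusted p=0.0681). With libraries scaled by their totals only, the DMT vs SD value was 0.28 (adjusted p=0.00488 by edgeR), still under the fold threshold.

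Hnf4a (ENSRNOG00000008895, rn5 chr3:166127644-166152838, plus strand), the most abundant member, had 467, 478 and 589 CPM in SD rats as the lowest, median and highest value. The corresponding values were 356, 438 and 498 CPM in SHAM rats and 404, 431 and 467 CPM in DMT rats. All 6 DMT rats and 6 of 7 SHAM rats lay below every SD rat, the exception being SHAM rat 340, although the highest DMT value (466.9 CPM) lay just under the lowest SD value (467.3 CPM) and the groups overlapped after TMM scaling. Log2 fold changes were -0.33 in SHAM vs SD (SE 0.09, adjusted p=0.00753 by edgeR) and -0.30 in DMT vs SD (SE 0.09, adjusted p=0.0170). Both corresponded to levels 1.26-fold and 1.23-fold lower, under the fold threshold, and Hnf4a was not called. Between DMT and SHAM rats the log2 fold change was 0.03 (95% confidence interval -0.16 to 0.21, adjusted p=0.856 by edgeR).

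Esrra (ENSRNOG00000021139, rn5 chr1:229159584-229169579, minus strand) shares 47 exonic bases with a gene on the opposite strand, and counting used strand. Its lowest, median and highest levels were 98.0, 113 and 120 CPM in SD rats, 106, 132 and 146 CPM in SHAM rats, and 107, 116 and 123 CPM in DMT rats. On this scale 6 of 7 SHAM rats lay above every SD rat, but after TMM scaling only 2 of 7 did. The log2 fold change was 0.11 in SHAM vs SD (adjusted p=0.246 by edgeR), -0.03 in DMT vs SD (adjusted p=0.811) and -0.13 in DMT vs SHAM (95% confidence interval -0.28 to 0.02, adjusted p=0.196). With libraries scaled by their totals only, the SHAM vs SD value was 0.24 (adjusted p=0.00807 by edgeR), under the fold threshold.

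Ppargc1a (ENSRNOG00000004473, rn5 chr14:63195104-63286096, plus strand), the coactivator gene shown above with its promoter, was higher in ZDSD than in SD rats. Its lowest, median and highest levels were 64.8, 78.2 and 91.9 CPM in SD rats, 96.2, 107 and 148 CPM in SHAM rats, and 97.1, 101 and 117 CPM in DMT rats. Every ZDSD rat lay above every SD rat in CPM, but not after TMM scaling. Log2 fold changes were 0.35 in SHAM vs SD (SE 0.08, adjusted p=0.00228 by edgeR) and 0.30 in DMT vs SD (SE 0.08, adjusted p=0.00865). These levels were 1.28-fold and 1.23-fold higher, under the fold threshold, and Ppargc1a was not called. In SHAM vs SD, it crossed the threshold without SD rat 357 (log2 fold change 0.41), without SHAM rat 321 (0.38), without SHAM rat 340 (0.38) and with libraries scaled by their totals only (0.49). Between DMT and SHAM rats, the log2 fold change was -0.05 (95% confidence interval -0.22 to 0.11, adjusted p=0.679 by edgeR).

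**Figure D5:**
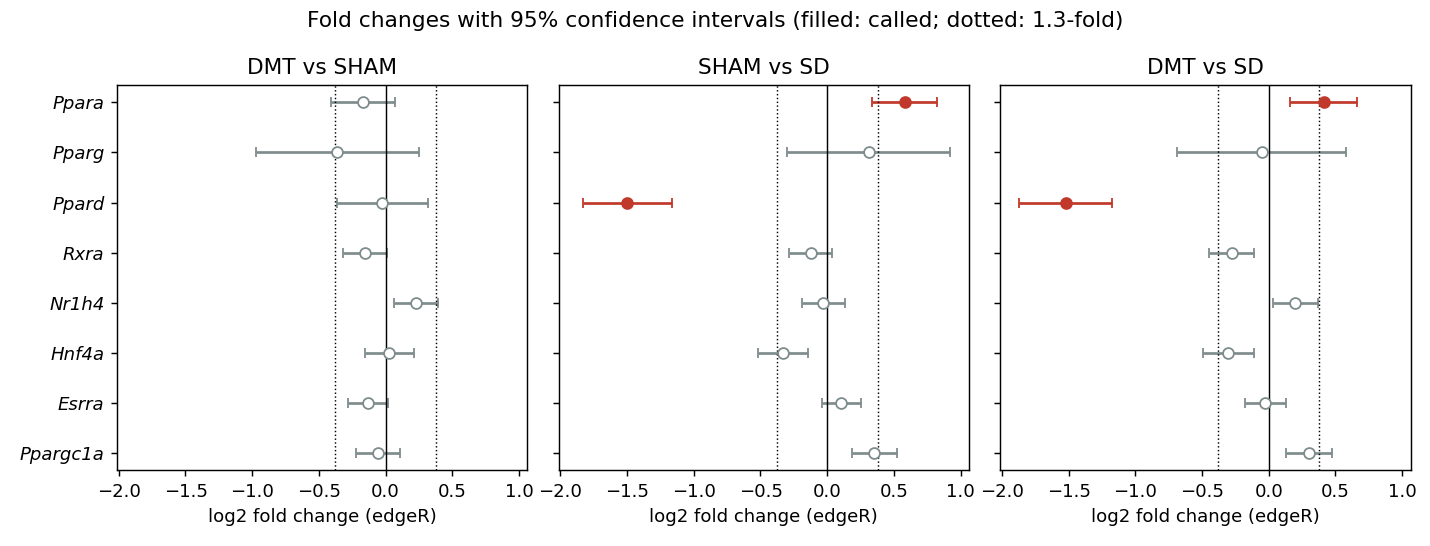
Log2 fold change (points) of each member from edgeR in each of the 3 comparisons, with its approximate 95% confidence interval (bars). Filled points are called and dotted lines mark 1.3-fold; Ppara and Ppard are called in both comparisons with SD and no member is called in DMT vs SHAM.

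Without the fold threshold, the members past the adjusted p-value were 4 of 8 in SHAM vs SD (Ppara and Ppargc1a higher, Ppard and Hnf4a lower), beside 35.0% of all genes. In DMT vs SD they were 5 of 8 (Rxra lower in addition), beside 31.9%. The groups did not overlap in CPM for 3 of 8 members in SHAM vs SD (Ppara, Ppard and Ppargc1a), beside 10.9% of all genes, for 4 of 8 in DMT vs SD (Hnf4a in addition), beside 18.4%, and for 0 of 8 in DMT vs SHAM, beside 7.44%. After TMM scaling, Ppara and Ppard in SHAM vs SD and Ppard in DMT vs SD remained separate. For the 8 members, the median absolute log2 fold change was 0.32 between SHAM and SD rats, 0.29 between DMT and SD rats and 0.14 between DMT and SHAM rats, compared with 0.18, 0.18 and 0.14 over all genes tested.

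Likeness to Ppara was measured as the root mean square difference in log2 CPM, centred on each gene, over the 19 rats, where 0 means the same pattern. Among members Ppargc1a was nearest (0.205, rank 145 of 14663 genes) and Esrra next (0.258, rank 1062), whereas Ppard was the most distant (0.985, rank 14396). Over all genes the median difference was 0.356. The nearest genes were ENSRNOG00000025324 (0.142) and ENSRNOG00000008137 (0.143). ENSRNOG00000025324 had mean levels of 89.8, 144 and 126 CPM in SD, SHAM and DMT rats, and ENSRNOG00000008137 had 36.1, 57.8 and 45.2 CPM. Both were lowest in SD and highest in SHAM rats, like Ppara, but they were picked for likeness to Ppara in these same rats, so that this order is not a separate result. The points share library depth, and the values are descriptions with no test.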

How the data were processed

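The authors trimmed reads of stranded, ribosomal RNA-depleted libraries with Trim Galore and removed adapters with Cutadapt. They aligned reads by STAR to rn5 and counted fragments on exons with featureCounts (1.6.4) by reverse strand. The deposited values are these counts, not normalized. Fragments that fit several genes or positions were not counted, and no member overlapped another gene on its strand.

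From the deposited counts, SHAM libraries under 1000000 counts (2 of 21) were left out. CPM and TPM were computed from library totals and the exonic lengths in the files. Genes were filtered with filterByExpr (minimum count 10, minimum total 15), which kept 14664, and normalized by TMM (factors 0.904 to 1.13). A quasi-likelihood model of edgeR (4.0.16, R 4.3.3) was fitted to 3 groups in one fit, with the thresholds of the study and no covariate, as the labels give none. The common biological coefficient of variation was 0.158. DESeq2 (1.42.0), other scalings, filters, samples and thresholds, and leaving out each rat, were alternatives. The fit was tested on simulated data. Other steps used Python (3.11.15), numpy (2.4.6), pandas (2.3.3) and matplotlib (3.10.9).

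Every member was named in every comparison, together with the 2 genes most like Ppara. The members and lists were chosen with earlier results of these data known. Of the lists of target genes, cofactors and cell type markers, 0 symbols could be matched to an identifier, and none was analysed here.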

Additional observations from a re-analysis of the deposited data

Results flagged for a closer look

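Of 27 groups of values examined for a single rat far from the others (Dixon's test on the 8 members and on the Ppara share of the PPAR isotypes, in 3 groups of rats), 4 were singled out, where chance gives about 1 in 20, or 1.35. Pparg in SHAM rat 334 was 4.22 CPM, while the other SHAM rats lay between 1.10 and 2.42 CPM. Ppard in DMT rat 341 was 31.4 CPM, while the other DMT rats lay between 16.1 and 21.2 CPM. The Ppara share of the PPAR isotypes in the same rat was 68.6%, against 78.5% to 83.7% in the others, and contains the Ppard value. Ppargc1a in SHAM rat 333 was 148 CPM, with the others between 96.2 and 118 CPM.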

How the results depend on the processing

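Ppard in both comparisons with SD was called in all 29 alternatives, Ppara in SHAM vs SD in 28 and Ppara in DMT vs SD in 26. Among these, dropping the fold threshold could not remove a call. Leaving out a rat of the group not compared left both compared groups whole. Without a fold threshold, 5131 genes were called between SHAM and SD rats, 4682 between DMT and SD rats and 2975 between DMT and SHAM rats, and members called were 4, 5 and 1. With the fold threshold inside the test, 810, 1091 and 461 genes were called, and 1 member (Ppard) in each comparison with SD. These counts differ by construction of the threshold. Leaving out each rat gave 2198 to 3070, 2437 to 2823 and 1398 to 1958 genes called, and 2 to 3, 1 to 2 and 0 to 0 members. No paired analysis was possible because the labels number the rats without tying them across groups.

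Scaling by library totals only moved the median log2 fold change of all genes by 0.13 between SHAM and SD, 0.08 between DMT and SD and -0.05 between DMT and SHAM rats. It turned the split of calls from 1515 higher and 1166 lower to 2484 and 745 in SHAM vs SD, and from 1174 and 1489 to 1597 and 1182 in DMT vs SD. With it, 3 members were called in SHAM vs SD, and directions reversed for Hnf4a in DMT vs SHAM (-0.019), Rxra (0.0099) and Nr1h4 (0.10) in SHAM vs SD, and Pparg (0.019) and Esrra (0.054) in DMT vs SD. None of these differences passed the adjusted p-value. Leaving out 1 rat turned the sign of small log2 fold changes, over ranges of -0.18 to 0.071 for Ppard, -0.024 to 0.071 for Hnf4a and -0.091 to 0.0082 for Ppargc1a in DMT vs SHAM, -0.082 to 0.022 for Nr1h4 in SHAM vs SD, and -0.063 to 0.012 for Esrra and -0.31 to 0.091 for Pparg in DMT vs SD. Of the other alternatives for fold changes of members, 226 kept direction and call, 7 gained a call, 2 lost it and 5 reversed direction. For leaving out 1 rat these counts were 439, 3, 2 and 12. Of 32 alternative levels, that of Nr1h4 in SHAM rats moved by more than its SD (85.2 CPM with TMM). The causes were not tested. Pparg had 16 to 91 counts per library, which limits the precision of its values.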

Other observations

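SHAM rat 340 had the lowest CPM of its group for 6 of 8 members (Ppara, Ppard, Rxra, Nr1h4, Esrra and Ppargc1a) and the highest for Hnf4a. After TMM scaling it was the lowest for 5 of 8 and again the highest for Hnf4a. DMT rat 328 had the highest CPM of its group for 4 of 8 members (Ppara, Rxra, Nr1h4 and Esrra), and for 3 of 8 after TMM scaling (without Esrra). Both rats were singled out after their values had been seen.

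In the SHAM libraries left out for their depth, rats 343 and 348 had 6 and 4 counts of Ppara, 0 and 3 of Ppard, 0 and 0 of Pparg, 45 and 45 of Hnf4a and 20 and 10 of Ppargc1a. In these libraries 3 counts equal 24.7 and 29.5 CPM, more than the Ppard median of the other SHAM rats.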
